A study of Homo sapiens with 6 samples.

Results

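The miRNAs described here came from the MIR532/MIR502/MIR660 cluster, a run of 8 hairpins within an intron of the human gene CLCN5. The 10 members were taken by name from the count table of mature miRNAs: hsa-miR-532-5p, hsa-miR-532-3p, hsa-miR-188-5p, hsa-miR-500a-3p, hsa-miR-362-5p, hsa-miR-362-3p, hsa-miR-501-5p, hsa-miR-501-3p, hsa-miR-660-5p and hsa-miR-502-3p. They were 10 of 2588 miRNAs listed and 10 of 800 that had enough counts to be tested. The other 6 mature miRNAs of the same hairpins were described beside them, and 5 of these were tested. The experiment asked which miRNAs an antibody against 7-methylguanosine (m7G) recovers from the RNA of Caco-2 cells, a line established from a human colorectal adenocarcinoma and grown in Eagle's medium with fetal bovine serum. Heat-denatured total RNA was immunoprecipitated to give the m7G-RIP libraries, and the starting RNA gave the input libraries. Small RNA sequencing was analysed for 3 input and 3 m7G-RIP libraries of this single line, with no treatment named in the labels. Nothing in the labels says that the 3 libraries of a group came from separate cultures, so that p-values measure only the spread between these libraries.

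Intronic miRNAs are cut from the primary transcript as hairpins, first by Drosha and then by Dicer, and each hairpin can yield one mature miRNA from its 5′ arm (5p) and one from its 3′ arm (3p). Usually one arm is loaded into Argonaute and the other is degraded, and bases 2 to 8 of the loaded strand, the seed, select the target mRNAs. CLCN5, the host gene, encodes a chloride/proton exchanger of endosomes. m7G is best known from mRNA caps and from tRNA and rRNA, and METTL1 is a methyltransferase that places it in tRNA.

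In the GRCh38 build with GENCODE release 44, CLCN5 (ENSG00000171365.17) lies on the plus strand at chrX:49922596-50099235. All 8 hairpins lie on the same strand, in the intron between exons 3 and 4 of transcript CLCN5-203 (chrX:49925315-50042315), and none overlapped a CLCN5 exon. From the start of MIR532 (chrX:50003148-50003238) to the end of MIR502 (chrX:50014598-50014683) the cluster spans 11536 bases. Between them lie MIR188 (chrX:50003503-50003588), MIR500A (chrX:50008431-50008514), MIR362 (chrX:50008964-50009028), MIR501 (chrX:50009722-50009805), MIR500B (chrX:50010672-50010750) and MIR660 (chrX:50013241-50013337). The longest gap between neighbours, 4842 bases, separates MIR188 from MIR500A.

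Mature sequences were taken from RefSeq on GRCh38.p14. Sequences were matched for 9 of the 10 members and 15 of the 16 mature miRNAs of the cluster, all but miR-660-5p. They are printed 5′ to 3′ with the seed (bases 2 to 8) in capitals. First come both arms of MIR532 and the 5p arm of MIR188, the upstream pair of hairpins, because they include the most abundant member and a member with few counts.
hsa-miR-532-5p: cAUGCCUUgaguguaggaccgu
hsa-miR-532-3p: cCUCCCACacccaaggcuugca
hsa-miR-188-5p: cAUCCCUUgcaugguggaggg

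The 3p arms of MIR500A, MIR501, MIR502 and MIR500B follow, because they are nearly the same molecule and yet differed in recovery by the antibody.
hsa-miR-500a-3p: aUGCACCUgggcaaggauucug
hsa-miR-501-3p: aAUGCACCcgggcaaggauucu
hsa-miR-502-3p: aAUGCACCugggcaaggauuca
hsa-miR-500b-3p: gCACCCAGgcaaggauucug

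The related 5p arms are shown, together with the 3p arm of MIR362, because these 5p arms divided into a weakly and a strongly depleted set.
hsa-miR-362-5p: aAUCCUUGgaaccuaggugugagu
hsa-miR-501-5p: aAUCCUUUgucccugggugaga
hsa-miR-500a-5p: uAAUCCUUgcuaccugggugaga
hsa-miR-500b-5p: aAUCCUUGcuaccugggu
hsa-miR-502-5p: aUCCUUGCuaucugggugcua
hsa-miR-362-3p: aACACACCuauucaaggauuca

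Positions of base differences were counted from 1 at the 5′ end of the first-named miRNA, after aligning the pair without gaps. miR-500a-3p and miR-501-3p differed at 1 of 21 aligned bases (U8C). miR-500a-3p and miR-502-3p also differed at 1 of 21 (U21A). miR-501-3p and miR-502-3p differed at 2 of 22 (C9U U22A) and were the members with the same seed (AUGCACC), while miR-362-5p shared its seed (AUCCUUG) with the non-member miR-500b-5p. All 18 bases of miR-500b-5p lay within miR-500a-5p, so reads of 18 bases cannot be told apart between them. The hairpins of MIR500A and MIR500B shared an unbroken stretch of 37 bases, and those of MIR500A and MIR502 one of 26.

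Total counts were 16466178 to 19628046 per input library and 1654102 to 3105129 per m7G-RIP library. Levels are given as CPM, counts brought to a common library size after correction by edgeR's TMM factors, which set a reference level from the bulk of miRNAs. On this scale 3 counts, taken as the floor of detection, correspond to 0.235 to 0.262 CPM in the input and 0.676 to 1.11 CPM in m7G-RIP. The floor and the precision at low values cover counting error only, since the reads carry no molecular identifiers.

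In the input, the cluster was dominated by miR-532-5p, the 5p arm of the first hairpin. The 10 members together held 0.840, 0.820 and 0.864% of all counts in the 3 input libraries, and miR-532-5p alone held 63.9% ± 1.60 (SD, n = 3) of the members' counts. Its input level was 7462, 8283 and 7895 CPM, and its mean was 8.70-fold above that of the next member, miR-500a-3p, at 922, 890 and 905 CPM. The lowest member was miR-362-3p, with 36, 29 and 37 input counts (2.86 ± 0.513 CPM, n = 3). miRNAs from 1 host intron therefore differed by 2759-fold in read level between the highest and the lowest member. Levels of different miRNAs compare reads per mature molecule, and differences in ligation or amplification between sequences were not tested.

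The order of the remaining input levels had 2 ties. miR-501-3p (781 ± 25.6 CPM) and miR-362-5p (768 ± 30.8 CPM) overlapped between libraries, as did miR-660-5p (669 ± 49.2 CPM) and miR-502-3p (668 ± 14.1 CPM). Below them stood miR-501-5p at 388 ± 32.4 CPM, miR-532-3p at 229 ± 10.1 CPM and miR-188-5p at 25.8 ± 1.42 CPM (SD, n = 3 each), each separated from its neighbours in every library. Neither arm dominated throughout. The 5p arm was the more abundant one in MIR532, MIR188, MIR362 and MIR660, and the 3p arm in MIR500A, MIR501 and MIR502. In MIR500B the 5p count was the higher one, but it repeats that of MIR500A, so the more abundant arm is not known.

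In m7G-RIP the order changed. The 10 members held 0.437, 0.563 and 0.614% of the counts of the 3 m7G-RIP libraries, below all 3 input libraries. The share of miR-532-5p among the members was 24.5% ± 3.20 (n = 3) instead of 63.9%. The lower total rested on miR-532-5p. The other members together held a share of all counts within or above the input range in each m7G-RIP library. miR-501-3p, at 976 ± 108 CPM, and miR-532-5p, at 889 ± 66.3 CPM, now overlapped at the top. miR-362-5p (556 ± 104 CPM) and miR-500a-3p (529 ± 46.3 CPM) came next and overlapped, followed by miR-502-3p (287 ± 34.0 CPM) and miR-501-5p (285 ± 42.9 CPM), which also overlapped. miR-660-5p, level with miR-502-3p in the input, lay at 27.5 ± 4.49 CPM and below miR-532-3p (97.8 ± 25.0 CPM). miR-188-5p was at 2.19 ± 1.06 CPM, and miR-362-3p had 0 counts in every m7G-RIP library.

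**Figure D1:**
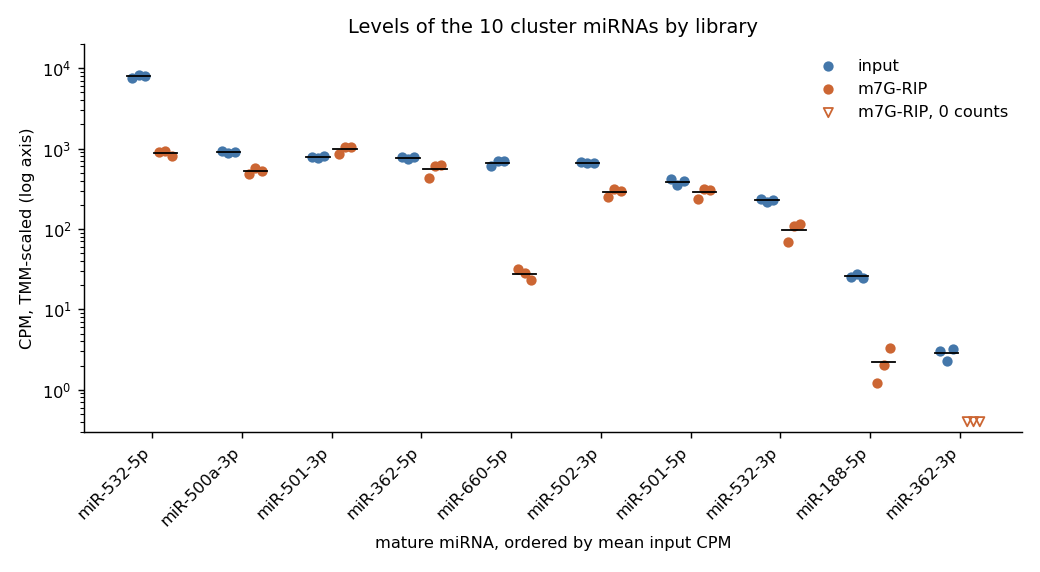
Level of each of the 10 members in each library (CPM, TMM-scaled, log axis), with input in blue, m7G-RIP in orange, the group mean as a black line (n = 3) and open triangles at the foot of the axis for libraries with 0 counts. miR-532-5p and miR-660-5p fell furthest among the abundant members, from 7880 to 889 and from 669 to 27.5 CPM, while miR-501-3p lay at 781 CPM in the input and 976 CPM in m7G-RIP.

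The change from input to m7G-RIP, the log2 enrichment, was tested for all 800 miRNAs together with edgeR's quasi-likelihood test, and adjusted p-values refer to all of them. Of the 10 members, 9 were depleted and 1 was enriched at an adjusted p-value under 0.05. Among all tested miRNAs, 38.1% were depleted and 40.1% enriched by the same test. Under total-count scaling 4 members were depleted and 3 enriched, beside 24.8% and 55.2% of all tested miRNAs. Under upper-quartile scaling 5 were depleted and 2 enriched, beside 28.4% and 52.2%. One of the 9, miR-362-3p, was also among the depleted members under both other scalings. It passed the count filter through its input libraries alone, so its call carries no weight in any of these counts. The 9 members with m7G-RIP counts had log2 enrichments from -4.59 to 0.32 with a median of -1.22 and an SD of 1.68. For all tested miRNAs the median was 0.16, with quartiles of -2.07 and 2.03.

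The values are described in 3 sets. miR-660-5p, miR-188-5p and miR-532-5p were strongly depleted, miR-532-3p, miR-502-3p and miR-500a-3p were moderately depleted, and miR-362-5p, miR-501-5p and miR-501-3p lay near 0. The sets were drawn after the values were seen and serve the description only. No gap separates the moderate set from the set near 0. miR-500a-3p lay 0.307 below miR-362-5p and 0.445 above miR-502-3p in log2 enrichment.

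miR-660-5p was the most depleted of the members with counts in every library. It lay at 613, 691 and 704 CPM in the input and at 31.8, 27.9 and 22.8 CPM in m7G-RIP. The groups were far apart, with a mean 24.3-fold lower in m7G-RIP (log2 enrichment -4.59, SE 0.18, edgeR quasi-likelihood adjusted p = 1.47e-10), the 48th lowest log2 enrichment of the 800. miR-532-5p, at the CPM values given above in the input, lay at 918, 936 and 813 CPM in m7G-RIP. This was 8.86-fold lower (log2 enrichment -3.15, SE 0.14, edgeR quasi-likelihood adjusted p = 3.67e-10). miR-188-5p, from the neighbouring hairpin, had 297, 349 and 282 input counts and only 5, 9 and 9 in m7G-RIP, or 25.3, 27.3 and 24.6 CPM against 1.21, 2.03 and 3.32 CPM. Its log2 enrichment was -3.62 with an SE of 0.36 (edgeR quasi-likelihood adjusted p = 8.56e-07), and the m7G-RIP libraries of this rare miRNA spread widely in proportion to their level. All 3 were called depleted under every alternative setting in which they were tested, and only miR-188-5p was missing from a setting, that of at least 10 counts in each library.

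miR-532-3p, the partner strand of miR-532-5p, lay at 237, 218 and 232 CPM in the input and 69.2, 109 and 115 CPM in m7G-RIP. Its log2 enrichment was -1.23 (SE 0.20, edgeR quasi-likelihood adjusted p = 7.77e-05). miR-502-3p was at 682, 654 and 667 CPM and at 248, 313 and 299 CPM, a log2 enrichment of -1.22 (SE 0.15, edgeR quasi-likelihood adjusted p = 5.65e-06). These lay side by side in the order of enrichment, and their ratio overlapped between the groups. Both kept their sign under every setting but lost the call when libraries were scaled by total counts (-0.11 each), and miR-532-3p lost it with upper-quartile factors as well (-0.42).

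miR-500a-3p fell from 922, 890 and 905 CPM to 482, 575 and 531 CPM, so that no m7G-RIP library reached the lowest input library. Its log2 enrichment was -0.77 (SE 0.14, edgeR quasi-likelihood adjusted p = 0.000176), and it turned to 0.33 under total-count scaling and 0.04 under upper-quartile scaling, without a call in either.

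The members near 0 changed little, and their direction depended on the scaling. miR-362-5p lay at 792, 733 and 779 CPM in the input and at 436, 610 and 622 CPM in m7G-RIP. Its log2 enrichment was -0.47 (SE 0.16, edgeR quasi-likelihood adjusted p = 0.0162) and became 0.65 under total-count scaling and 0.35 under upper-quartile scaling. miR-501-5p, at 415, 352 and 396 CPM against 237, 318 and 301 CPM, had a log2 enrichment of -0.44 (SE 0.16, edgeR quasi-likelihood adjusted p = 0.0204), which became 0.67 and 0.38 under the same scalings. Both lost the call when input replicate 1 (-0.44 and -0.39) or input replicate 3 (-0.38 and -0.35) was left out.

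miR-501-3p was the single member called enriched. It lay at 776, 758 and 809 CPM in the input and 852, 1045 and 1033 CPM in m7G-RIP, so that the groups did not overlap but stood close together. Its log2 enrichment was 0.32 (SE 0.14, edgeR quasi-likelihood adjusted p = 0.0484), the 417th lowest of 800, next to the median of all miRNAs. The call held in 4 of 15 alternative settings, over which the adjusted p ranged from 9.43e-06 to 0.964, and the value became -0.02 with DESeq2's size factors.

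miR-362-3p, the scarce partner of miR-362-5p, was seen in the input only. Its 0 counts in each m7G-RIP library, set at the floor of 3 counts per library, make it at least 3.42-fold lower in m7G-RIP on the TMM scale. This bound moves with the scaling and is smaller with total counts.

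Because the scaling moved values of this size, the members were also set against the median of all miRNAs. Relative to TMM factors, that median moved by -0.34 with DESeq2's size factors, 0.82 with upper-quartile factors and 1.09 with total counts, and the enriched share of all calls was 51.3% with TMM, 45.1% with DESeq2's size factors, 64.8% with upper-quartile factors and 69.1% with total counts. Measured from the median under each of these 4 scalings, miR-660-5p lay between -4.76 and -4.74 and miR-532-5p between -3.31 and -3.28 on the log2 scale. miR-501-5p lay between -0.60 and -0.56. A change of scaling shifts all miRNAs by nearly the same amount, so these distances are nearly fixed in advance. They give a position among all miRNAs and do not show which scaling is right. miR-501-3p lay 0.16 to 0.21 above the median.

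**Figure D2:**
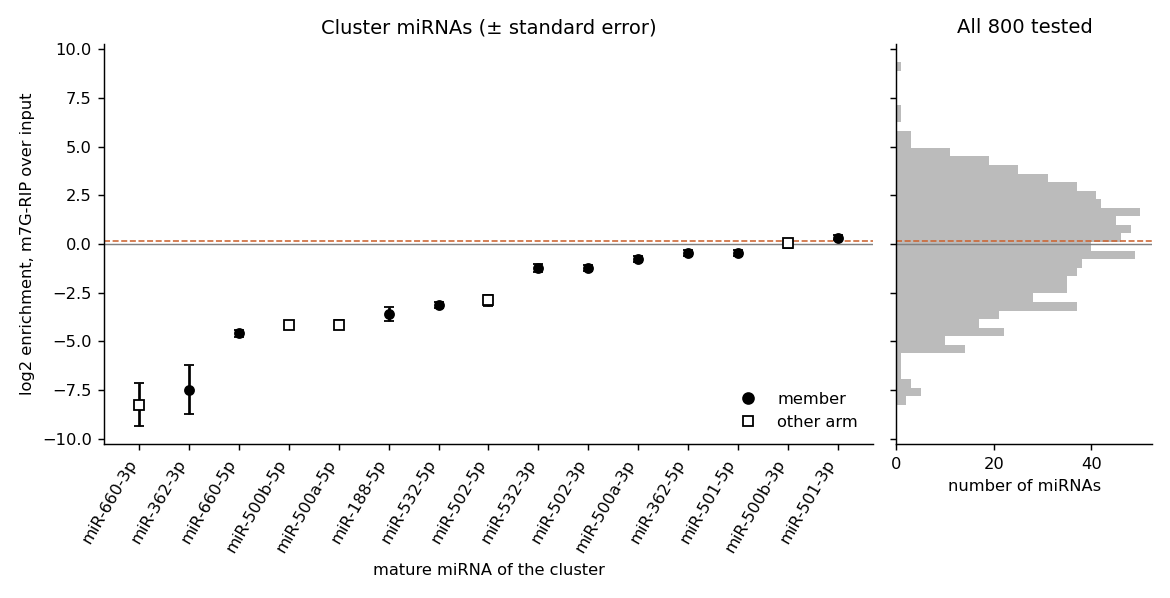
Log2 enrichment of m7G-RIP over input for the 15 tested miRNAs of the cluster (left, filled circles for members, open squares for the other arms, bars ± SE of edgeR's fit) on the same axis as the histogram of all 800 tested miRNAs (right), with the median of all miRNAs (0.16) as a dashed line. miR-501-3p and miR-500b-3p sit beside that median and miR-660-5p at -4.59, and the lowest values, miR-660-3p and miR-362-3p, have 0 counts in m7G-RIP so that their fitted values are no bounds. The side of 0 on which miR-500a-3p, miR-362-5p, miR-501-5p, miR-501-3p and miR-500b-3p lie changed with the scaling.

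Of the other mature miRNAs of the 8 hairpins, 5 were tested, of which 4 were depleted, beside the 38.1% of all miRNAs, and 1 was not called. Among the 4, miR-660-3p passed the filter through its input libraries alone and miR-500b-5p repeats the counts of miR-500a-5p, so neither carries weight in that count. miR-500a-5p had 3835, 2770 and 3162 input counts and 60, 78 and 37 in m7G-RIP, which is 17.9-fold lower in CPM (log2 enrichment -4.15, SE 0.22, edgeR quasi-likelihood adjusted p = 1.55e-09). miR-500b-5p had counts within 7 of these in each of the 6 libraries and is not independent of miR-500a-5p.

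miR-502-5p had 533, 446 and 495 input counts and 23, 18 and 20 in m7G-RIP (log2 enrichment -2.89, SE 0.29, edgeR quasi-likelihood adjusted p = 8.60e-07). miR-660-3p had 55, 58 and 62 input counts and 0 in each m7G-RIP library. On the TMM scale it was at least 5.84-fold lower against a floor of 3 counts per library, a bound that also moves with the scaling. miR-500b-3p was the exception, with 27.5, 28.6 and 28.1 CPM in the input and 25.0, 32.6 and 28.0 CPM in m7G-RIP. Its groups overlapped, and its log2 enrichment of 0.03 (SE 0.22, edgeR quasi-likelihood adjusted p = 0.918) changed sign with the scaling, from -0.32 with DESeq2's size factors to 1.13 with total counts. miR-188-3p, with 3, 7 and 3 input counts and 0 in m7G-RIP, was too rare to be tested.

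By arm, 8 of 8 tested 5p miRNAs of the cluster were depleted with TMM scaling, beside 38.6% of all 329 tested 5p miRNAs, 2 of which (miR-362-5p and miR-501-5p) turned positive under both total-count and upper-quartile scaling, and 2 of which (miR-500a-5p and miR-500b-5p) share reads. Of 7 tested 3p miRNAs, 5 were depleted, beside 42.7% of all 314 tested 3p miRNAs, 1 was enriched and 1 was not called, 2 of the 5 depleted ones had no counts in m7G-RIP, and miR-500a-3p, miR-501-3p and miR-500b-3p changed sign with the scaling.

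Both arms of a hairpin come from 1 precursor and are counted in the same library, so that their ratio is free of library size and scaling. The change of the 5p/3p ratio between input and m7G-RIP was tested with edgeR's quasi-likelihood test over the 194 hairpins whose arms both passed the count filter. The ratio differed in 71.1% of these hairpins, and it was lower in m7G-RIP in 23.2%. Of the 7 hairpins of the cluster that entered the fit, 5 had a lower 5p/3p ratio in m7G-RIP. Among these 5, MIR500A and MIR500B share a 5p count and are not independent.

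In MIR532 the log2 of the 5p/3p ratio was 4.97, 5.25 and 5.09 in the input and 3.73, 3.10 and 2.82 in m7G-RIP. The 5p arm remained the more abundant one, but by less, with a change of -1.89 (SE 0.24, edgeR quasi-likelihood adjusted p = 0.000433). In MIR500A the ratio was already on the 3p side, at -1.50, -2.04 and -1.71, and moved to -5.04, -5.02 and -5.26. That change, -3.36 (SE 0.19, edgeR quasi-likelihood adjusted p = 1.18e-05), was the 49th largest in size among the 194 hairpins, whose median absolute change was 2.25.

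MIR501 gave the smallest change, from -0.90, -1.11 and -1.03 to -1.85, -1.72 and -1.78. The libraries of each group lay close together, and the change of -0.77 (SE 0.12, edgeR quasi-likelihood adjusted p = 0.00109) ranked 152nd in size. In MIR502 the log2 ratio moved from -3.91, -4.23 and -3.95 to -5.44, -6.23 and -5.31, a change of -1.67 (SE 0.26, edgeR quasi-likelihood adjusted p = 0.00126). For MIR500B, as counted, the more abundant arm switched. The log2 ratio was 3.57, 2.92 and 3.30 in the input and -0.77, -0.95 and -1.03 in m7G-RIP. Its change of -4.18 (SE 0.25, edgeR quasi-likelihood adjusted p = 1.38e-05) rests on a 5p count that miR-500a-5p shares.

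MIR362 moved the other way, because miR-362-3p had no counts in m7G-RIP. With that arm set at 3 counts, the log2 5p/3p ratio was at least 9.14 to 9.82 in m7G-RIP against 7.91 to 8.33 in the input, a rise of at least 1.31 on average, given without a test because the fitted change rests on an arm at 0 counts. For MIR660 the same floor gave bounds of 4.37 to 5.45 in m7G-RIP against 7.02 to 7.25 in the input, so that a direction was not detectable at this depth. The fit did call this hairpin (5.11, edgeR quasi-likelihood adjusted p = 0.047) on an arm at 0 counts, and the call was lost without any 1 of the 6 libraries (4.85 to 5.37). MIR188 did not enter the fit, since its 3p arm was not tested.

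Tested one hairpin at a time over 3 against 3 libraries, the within-library arm ratios of MIR532, MIR500A, MIR501, MIR500B and MIR502 each gave an exact two-sided permutation p = 0.1, the smallest that this design allows (p = 0.108 adjusted over 13 ratios, 3 of which were added after the values were seen). For MIR362 and MIR660, whose 3p arms had 0 counts in m7G-RIP, the exact permutation p was 0.1 and 0.4, and the size of the ratio depends on the pseudocount.

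**Figure D3:**
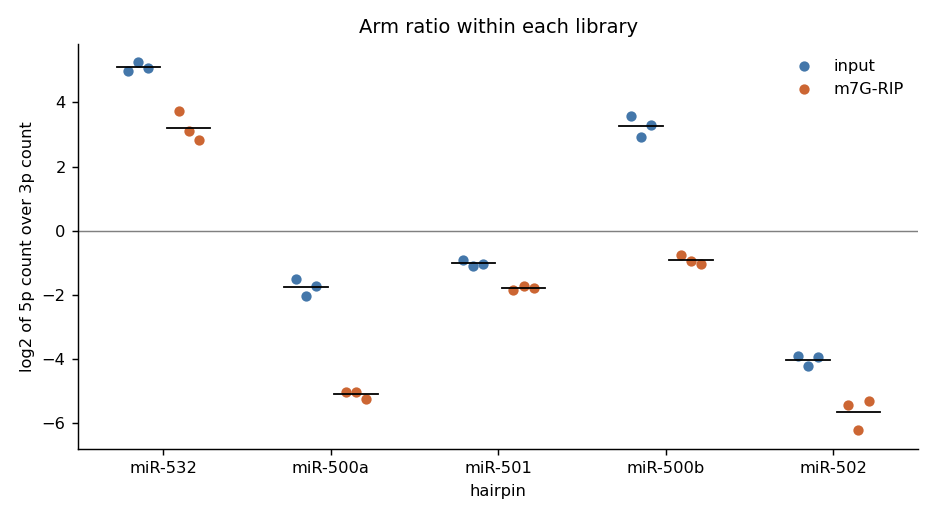
Log2 of the 5p count over the 3p count within each library (vertical axis) for the 5 hairpins with counts on both arms in every library, with input in blue, m7G-RIP in orange and the group mean as a black line (n = 3). The ratio is lower in m7G-RIP for each of the 5 hairpins, from a change of -0.77 in MIR501 to -4.18 in MIR500B, where it crosses 0. The 5p count of MIR500B repeats that of MIR500A within 7 counts per library.

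The near-identical 3p miRNAs gave a comparison of members that differ by 1 or 2 bases. In the input miR-501-3p was slightly below miR-500a-3p, with log2 ratios of -0.25, -0.23 and -0.16. In m7G-RIP it was above, at 0.82, 0.86 and 0.96, so that the order of these miRNAs reversed with a change of 1.09. Against miR-502-3p, with the same seed, the log2 ratio of miR-501-3p moved from 0.19, 0.21 and 0.28 to 1.78, 1.74 and 1.79, a change of 1.54. The ratio of miR-500a-3p to miR-502-3p changed by 0.45, from 0.43, 0.44 and 0.44 to 0.96, 0.88 and 0.83. None of the 3 ratios overlapped between the groups, and each had an exact two-sided permutation p = 0.1, the smallest possible (p = 0.108 adjusted over 13 ratios). Summed over the 3p arms of MIR500A, MIR500B, MIR501 and MIR502, the log2 enrichment was -0.38 (edgeR quasi-likelihood adjusted p = 0.0206). How a read that matches several of these sequences was counted is not stated, and its part in the ratios was not tested.

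The related 5p arms, a set chosen after their values were seen, differed more. The log2 ratio of miR-501-5p to miR-500a-5p was 0.34, 0.70 and 0.52 in the input and 4.01, 4.17 and 4.45 in m7G-RIP, a change of 3.69. These sequences differed at 3 of 22 aligned bases (G9U C10G A12C, counted on miR-500a-5p). miR-362-5p over miR-500a-5p, which differed at 4 of 22 (C10G U11A G16A A21U), changed by 3.65, from 1.51 ± 0.24 to 5.16 ± 0.30 (SD, n = 3). miR-501-5p over miR-502-5p changed by 2.41, from 3.24 ± 0.08 to 5.65 ± 0.53. These changes are given as descriptions, because the pairs were picked for their difference. The pairs are among the 13 ratios of the permutation tests, but their p-values are not read as support. miR-500a-5p and miR-502-5p, both strongly depleted, differed from each other at 3 of 21 bases (C13U A21C G22U).

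Along the intron, strongly depleted miRNAs lay on both sides of those near 0. At the upstream end, with starts 355 bases apart, MIR532 and MIR188 gave 5p miRNAs at -3.15 and -3.62. MIR500A and MIR362 are separated by 449 bases, and their 5p miRNAs lay at -4.15 and -0.47. MIR501, further on, gave 5p and 3p values of -0.44 and 0.32, and MIR660 and MIR502, at the downstream end, gave 5p miRNAs at -4.59 and -2.89. Reads of mature miRNAs carry no trace of the primary transcript, so the methylation of the host transcript was not measured.

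**Figure D4:**
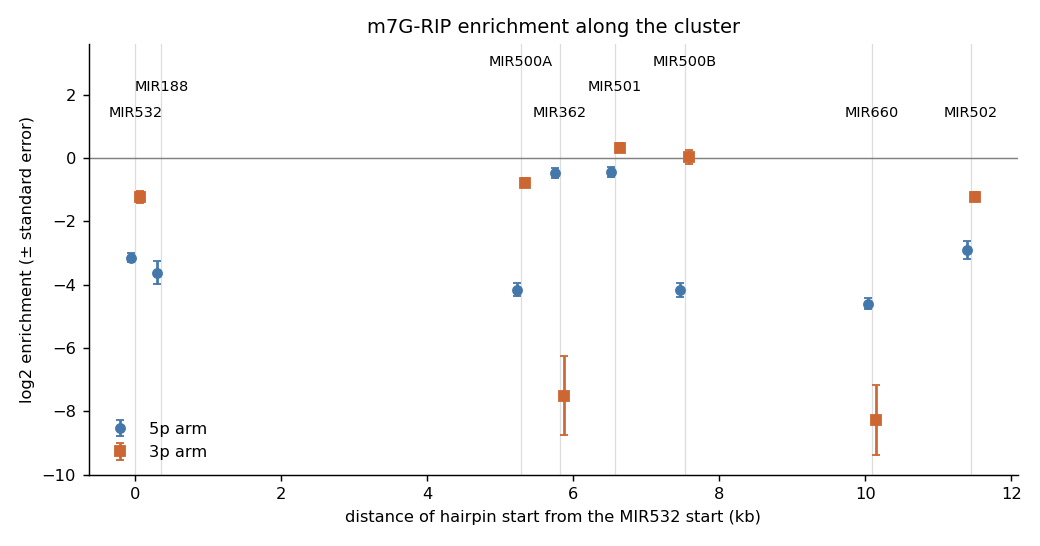
Log2 enrichment (± SE of edgeR's fit) of the 5p (blue circles) and 3p (orange squares) miRNA of each hairpin against the distance of the hairpin start from the MIR532 start (kb), with the arms drawn slightly apart. Neighbouring hairpins can lie far apart in enrichment, as in MIR500A (5p at -4.15) and MIR362 (5p at -0.47), and the 3p miRNAs of MIR362 and MIR660 have 0 counts in m7G-RIP, so their fitted values are no bounds. Values between -0.77 and 0.32 changed sign with the scaling.

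m7G is a modified guanosine, and the guanosine share of the mature sequence was therefore set beside the enrichment. Over the 714 tested miRNAs with a RefSeq sequence, the log2 enrichment had a Spearman rho of 0.497 and a Pearson r of 0.498 with the guanosine share. Among the 357 of these with an input level above their median, rho was 0.306 and r was 0.368. These are descriptions across miRNAs of the same 6 libraries, which are not independent of each other. Some guanosine-rich miRNAs passed the count filter through m7G-RIP alone and could only appear enriched. The value over all 714 therefore depends in part on the filter. Among the cluster's miRNAs the value depended on those with 0 counts in every m7G-RIP library, whose fitted enrichment is no bound, so no relation is read from it. With them, the 9 members with a sequence gave a rho of -0.01 and an r of 0.42, and all 14 tested miRNAs of the cluster with a sequence gave 0.454 and 0.407. Without them, the remaining 8 members gave a rho of -0.45 and an r of -0.45, and the 11 cluster miRNAs, miR-500b-5p also left out, gave 0.03 and -0.17. Members held 9.09 to 38.1% guanosine, around a median of 27.3% for all 714 (quartiles 18.2 and 39.1%).

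Of the members with a sequence, miR-188-5p had the highest guanosine share, 38.1%, and a log2 enrichment of -3.62. miR-362-3p had the lowest share, 9.09%, and no m7G-RIP counts, so its call carries no weight here either. miR-532-5p and miR-500a-3p had the same share, 31.8%, and log2 enrichments of -3.15 and -0.77. miR-501-3p, miR-501-5p and miR-502-3p also had equal shares, 27.3%, at 0.32, -0.44 and -1.22. A run of 4 or more guanosines occurred in 109 of the 714 sequences (15.3%) and in 0 of the members with a sequence. Those 109 had a median log2 enrichment of 2.84 and were not matched to the members in input level. The longest run was 3 in 5 members, among them miR-188-5p, and 2 in the other 4, among them miR-532-5p. Over all 714, sequences whose longest run was 3 or 2 had median log2 enrichments of 0.92 and -0.97. These medians and that of the 109 include miRNAs that passed the count filter through m7G-RIP alone, so they depend in part on the filter.

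**Figure D5:**
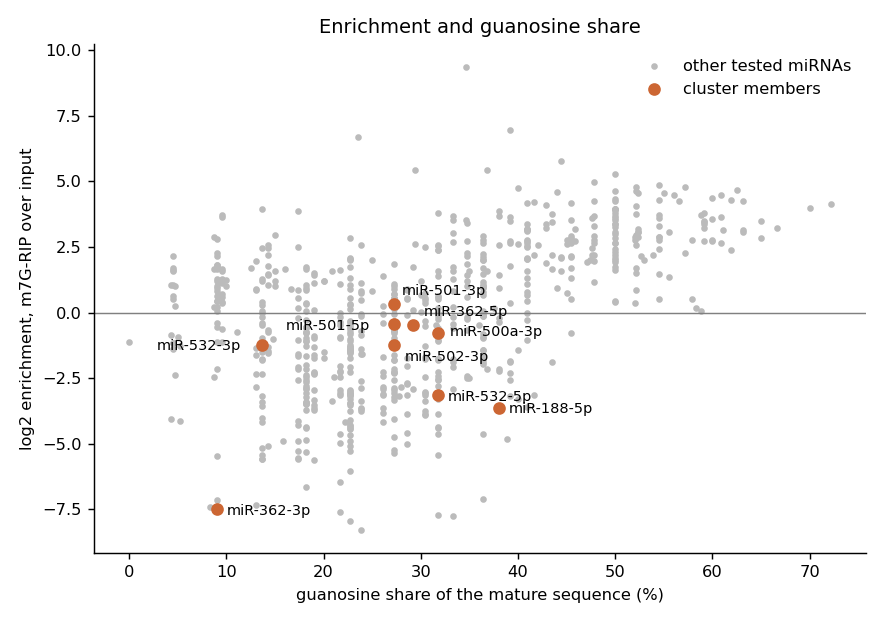
Log2 enrichment (vertical axis) against the guanosine share of the mature sequence (%, horizontal axis) for the tested miRNAs with a RefSeq sequence, with the 9 such members in orange. The members span 9.09 to 38.1% guanosine, and those at 27.3% range from -1.22 to 0.32, with the sign of miR-501-3p and miR-501-5p depending on the scaling.

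Outside the cluster, the profile over the 6 libraries most like that of miR-532-5p was looked for among 255 well-covered miRNAs, by the Euclidean distance between log2 CPM values centred on each miRNA's own mean. The nearest were miR-17-5p, a member of the miR-17/92 cluster (distance 0.194), miR-194-5p (0.273) and miR-372-3p (0.275). miR-17-5p went from 5492 ± 242 CPM in the input to 625 ± 37.4 CPM in m7G-RIP (n = 3 each), a log2 enrichment of -3.13 with an SE of 0.14. miR-194-5p went from 15999 ± 148 to 1649 ± 236 CPM, and miR-372-3p from 438926 ± 29633 to 53283 ± 7349 CPM. These miRNAs were picked for their likeness, so the values describe it and are not a test.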

How the data were processed

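Small RNA libraries (NEBNext, single-end) of Caco-2 input and m7G-RIP RNA were grouped by their labels. The deposited table holds unnormalized counts of reads on each mature miRNA, which the authors obtained after adaptor trimming with Trimmomatic by counting with featureCounts on miRBase release 22. For alignment to GRCh38 the study's methods name STAR (at most 10 loci and 1 mismatch), while the submitters' processing notes name Bowtie2. How reads with several loci were counted is not given in the sources used here. The methods of the study also describe removal of mRNA caps for the antibody experiments.

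From the counts, edgeR 4.0.16 (R 4.3.3) was used with filterByExpr (minimum count 10, minimum total 15), TMM factors, the quasi-likelihood test and Benjamini-Hochberg adjustment at 0.05. The arm fit gave each library its own coefficient. Within-library ratios used a pseudocount of 0.5 and exact two-sided permutation tests over libraries. Both fits were run on simulated counts with known changes, which checks the code and not the spread of these libraries. Alternatives were other scalings, DESeq2 1.42.0, other filters, the replicate block, a threshold of 0.01, leaving out each library, and summing near-identical 3p arms. Python 3.11.15 with scipy 1.17.1 and matplotlib 3.10.9 served for sequences, ratios and plots.

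The miRNAs named are the 10 members, the other mature miRNAs of their hairpins, and the 3 miRNAs, of those averaging at least 5 in log2 CPM, whose profile was nearest to that of miR-532-5p. The members and lists were chosen with earlier results of these data known. Pairs of libraries within a group differed beyond sampling noise (chi-square divided by its degrees of freedom 17.5 to 105), so none was counted as a copy. Sequencing batches were not given in the sources used here.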

Additional observations from a re-analysis of the deposited data

How the results depend on the processing

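The number of members enriched was 1 with TMM factors and 0 with DESeq2's size factors, the DESeq2 Wald test, the replicate block, no count filter, a minimum of 10 counts in each library, an adjusted p under 0.01 and summed 3p arms. It was 3 with total counts, 2 with upper-quartile factors and 0 to 1 when 1 library was left out. The number depleted was 4 with total counts, 5 with upper-quartile factors and 6 to 9 when 1 library was left out. The 4 and the 5 include miR-362-3p, which had 0 m7G-RIP counts. Over all miRNAs, 198 were depleted with total counts, and 182 were enriched and 175 depleted with at least 10 counts in every library, where 426 were tested. Log2 enrichments changed sign for miR-501-3p (-0.0192 with DESeq2's size factors and -0.0194 with its Wald test), miR-500b-3p (-0.32 with each of these, -0.28 with no filter, -0.11 with at least 10 counts, -0.25 to 0.10 leaving out 1 library), miR-500a-3p (0.33 with total counts, 0.0439 with upper-quartile factors), miR-362-5p (0.65, 0.35) and miR-501-5p (0.67, 0.38). With the replicate block, miR-501-3p had a log2 enrichment of 0.32 (edgeR quasi-likelihood adjusted p = 0.114), all miRNAs gave 296 enriched and 295 depleted, and no other member's call changed. The study's protocol saves part of the RNA as input before the immunoprecipitation, but the labels do not say which libraries share RNA. Same-numbered libraries did not deviate together (correlations -0.01, -0.03 and 0.06), which cannot decide whether they are pairs. The main test left pairing out, and the call of miR-501-3p depends on that choice. Hairpins whose arms differ numbered 77 instead of 138 with at least 10 counts on both arms. The MIR660 arm difference was called at 5.11, and not with the replicate block (5.10), at an adjusted p under 0.01 (5.11) or without any 1 library (4.85 to 5.37). Its ratio difference turned from 0.57 to -0.41 with a pseudocount of 1. Apart from fewer tested miRNAs under stricter filters, the cause of these changes was not tested. Depth limits miR-188-3p, miR-188-5p, miR-362-3p and miR-660-3p, which had at most 9 counts in each m7G-RIP library.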
